A study of Mus musculus with 16 samples.

Results

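HSC aging signature genes are genes reported to be more abundant in hematopoietic stem cells (HSCs) of old mice than in those of young mice. The 37 genes described here are the rows of the count table whose symbols stand on such a list, with Selp itself left out because it was the targeted gene. All 37 of the 25239 genes in the table passed the filter on low counts and were among the 14124 genes tested. They were measured by bulk RNA-seq in HSCs from bone marrow of mice aged 4 to 6 months, so no old animal was compared, and the question here is how the signature genes stand in cells without P-selectin. The cells were Selp wild type (WT) or Selp knockout (KO), and each genotype was studied as freshly sorted (fresh) cells, as cells cultured with vehicle alone, and as cells cultured for 24 hours with PSGL-1 at 125 ng/mL. PSGL-1, the selectin P ligand, is a glycoprotein that P-selectin binds. The 16 libraries comprised 3 WT and 2 KO fresh, 3 WT and 3 KO vehicle, and 2 WT and 3 KO PSGL-1 libraries. Cultured cells of both genotypes were kept in StemSpan medium with fetal calf serum, SCF, IL-11 and Flt-3 ligand. The sources used here do not give the knockout allele, the sort gates or the duration of vehicle culture. Nor do they tie replicates to separate mice, so the p-values rest on the spread between these libraries, and that spread may be technical.

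HSCs are rare bone marrow cells that renew themselves and replace all blood lineages. With age they become more numerous, home and engraft less well and lean towards myeloid and platelet output, and a recurring set of transcripts rises in them. That set mixes stress proteins, metal-binding proteins, enzymes, adhesion molecules and receptors, and Selp, which encodes the adhesion receptor P-selectin of platelets and endothelium, is one of its known members.

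The libraries held 12590539 to 24690824 counts. Levels are given as CPM (counts-per-million), the count of a gene scaled to the total of its library, and the detection floor of 3 counts corresponded to 0.122 to 0.238 CPM. Floors cover counting error only. Selp was low in each KO library, at 0 to 12.4 CPM, and at 16.8 to 183 CPM in WT. The library WT PSGL-1 replicate 1 was sparse, with 9035 detected genes against 11101 to 13480 in the other 15. In it 18 of the 37 members had 0 counts (48.6%, against 36.6% of the tested genes), while 0 to 10 members had 0 counts in the other libraries. KO fresh replicate 2 stood at the other end, with 0 members and 7.80% of tested genes at 0 counts. Each of the 10 listed HSC markers had counts in some library, and all but Cd48 in 15 or 16. Cd48, a marker by its absence, had counts in 10 of 16 at a median of 0.201 CPM, and its detection is no sign of HSCs. The sum of the 10 markers overlapped between fresh WT (2463 to 2970 CPM) and fresh KO (2525 to 2992). It was higher in KO without overlap after vehicle (1971 to 2640 in WT, 2750 to 2952 in KO) and after PSGL-1 (1909 to 2435 in WT, 2583 to 2704 in KO). Much of that gap was Ly6a, with means of 471 CPM in WT and 778 CPM in KO after vehicle. After PSGL-1 its means were 439 and 721 CPM. Of the 10 markers 8 were above 0 in KO against WT after vehicle and 6 after PSGL-1, where 49.8% and 57.4% of all genes were. The hemoglobin genes on the erythroid list and Cd3d, Cd3e and Cd3g were at 0 counts throughout, and the endothelial gene Cdh5 had counts in 2 of 16 libraries. All 8 granulocyte and monocyte markers had counts in some library, and their sum was 1228 to 1312 CPM in fresh KO against 742 to 790 in fresh WT, mostly Prtn3 and Lyz2. After PSGL-1 that sum was also higher in KO without overlap (165 to 168 CPM in WT, 221 to 301 in KO), and after vehicle the groups overlapped. The T and NK cell sum, to which only Nkg7, Klrb1c and Cd4 gave counts, was lower in fresh KO without overlap (41.0 to 46.2 CPM, against 70.5 to 103 in WT). The 9 megakaryocyte and platelet markers, of which Gp6 was at 0 throughout, summed to 918 to 1064 CPM in fresh KO and 1086 to 1561 CPM in fresh WT. Whether these cell type differences take part in the member differences below was not tested. In bulk libraries fewer cells of a type and less RNA per cell cannot be told apart.

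Promoter windows are shown for 3 members: Nupr1, because each KO library lay above each WT library of its condition, and the neighbouring metallothionein genes Mt1 and Mt2, because 2 genes of the same family can be set side by side. They are RefSeq sequences of GRCm38.p6, from 250 bases before to 50 after the start site that the table gives, available for 29 of the 37 members. The start site in the Mt1 window is 94179089, which lies 206 bases inside the gene as its RefSeq record gives it, from 94178883. In Nupr1 the capitals mark a match to TGATGNAA, the composite C/EBP and ATF site, read on either strand. In Mt1 and Mt2 they mark matches to TGCACNC or TGCGCNC, both forms of the core of metal response elements, on either strand.
Nupr1, chr7:126625421-126625720, minus strand: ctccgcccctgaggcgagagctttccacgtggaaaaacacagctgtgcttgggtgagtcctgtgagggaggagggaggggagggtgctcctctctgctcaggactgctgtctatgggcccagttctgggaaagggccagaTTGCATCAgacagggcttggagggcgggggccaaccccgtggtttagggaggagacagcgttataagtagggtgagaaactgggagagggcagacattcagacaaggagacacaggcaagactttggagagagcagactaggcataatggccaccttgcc
Mt1, chr8:94178839-94179138, plus strand: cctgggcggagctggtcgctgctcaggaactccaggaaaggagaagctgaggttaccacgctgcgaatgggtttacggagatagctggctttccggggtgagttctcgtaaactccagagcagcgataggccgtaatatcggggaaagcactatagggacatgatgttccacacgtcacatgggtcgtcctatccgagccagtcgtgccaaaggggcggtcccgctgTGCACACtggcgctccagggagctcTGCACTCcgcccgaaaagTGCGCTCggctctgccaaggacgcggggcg
Mt2, chr8:94172368-94172667, plus strand: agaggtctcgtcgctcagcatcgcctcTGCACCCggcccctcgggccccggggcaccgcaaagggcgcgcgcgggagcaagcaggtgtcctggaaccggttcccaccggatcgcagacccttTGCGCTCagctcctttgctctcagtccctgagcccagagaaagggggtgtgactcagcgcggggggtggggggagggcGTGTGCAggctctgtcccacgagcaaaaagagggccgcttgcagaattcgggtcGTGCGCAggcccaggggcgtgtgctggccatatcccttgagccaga
The Nupr1 match lies on the reverse strand at −110 from the start site, and 3.97% of the 32851 promoter windows in the table hold such a match. Mt1 holds 3 matches to the metal response core and Mt2 holds 4. At least 1 match occurs in 25.7% of windows, at least 3 in 1.97% and at least 4 in 0.517%. No match overlaps another one. A match is a description of the letters and not evidence of binding.

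Compared with WT, the signature genes lay mostly higher in KO cells, and 1 of them, Clu, passed the test. The members were chosen with earlier results of these data known, so their shares describe the list and are no independent test. In fresh cells 35 of 37 members had a log2 difference above 0, with a median of 0.87, whereas 48.8% of all tested genes were above 0 with a median of 0. In the same fresh libraries KO also had the higher granulocyte and monocyte sum, and the lower megakaryocyte and T and NK cell sums, without overlap. After vehicle culture 34 of 37 were above 0 with a median of 0.91, against 49.8% and a median of 0 for all genes. The HSC marker sum was higher in KO too, in both cultures largely through Ly6a. After PSGL-1 culture 29 of 37 were above 0 with a median of 1.25, against 57.4% and 0.17, with the HSC and the granulocyte and monocyte sums higher in KO. These differences are edgeR log2 values from one fit to all libraries. For the 30 members that averaged at least 5 CPM the medians were 0.72, 0.90 and 0.98. With members at 0 counts throughout 1 group set to their bound, the medians were 0.87, 0.90 and 1.22. The 3 comparisons share no library. In all 3 of them 25 of 37 members (67.6%) were above 0, against 16.4% of all genes, and none was below 0 in all 3, against 11.4% of all genes. The plot of log2 differences by condition shows this leaning to the right of 0.

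**Figure D1:**
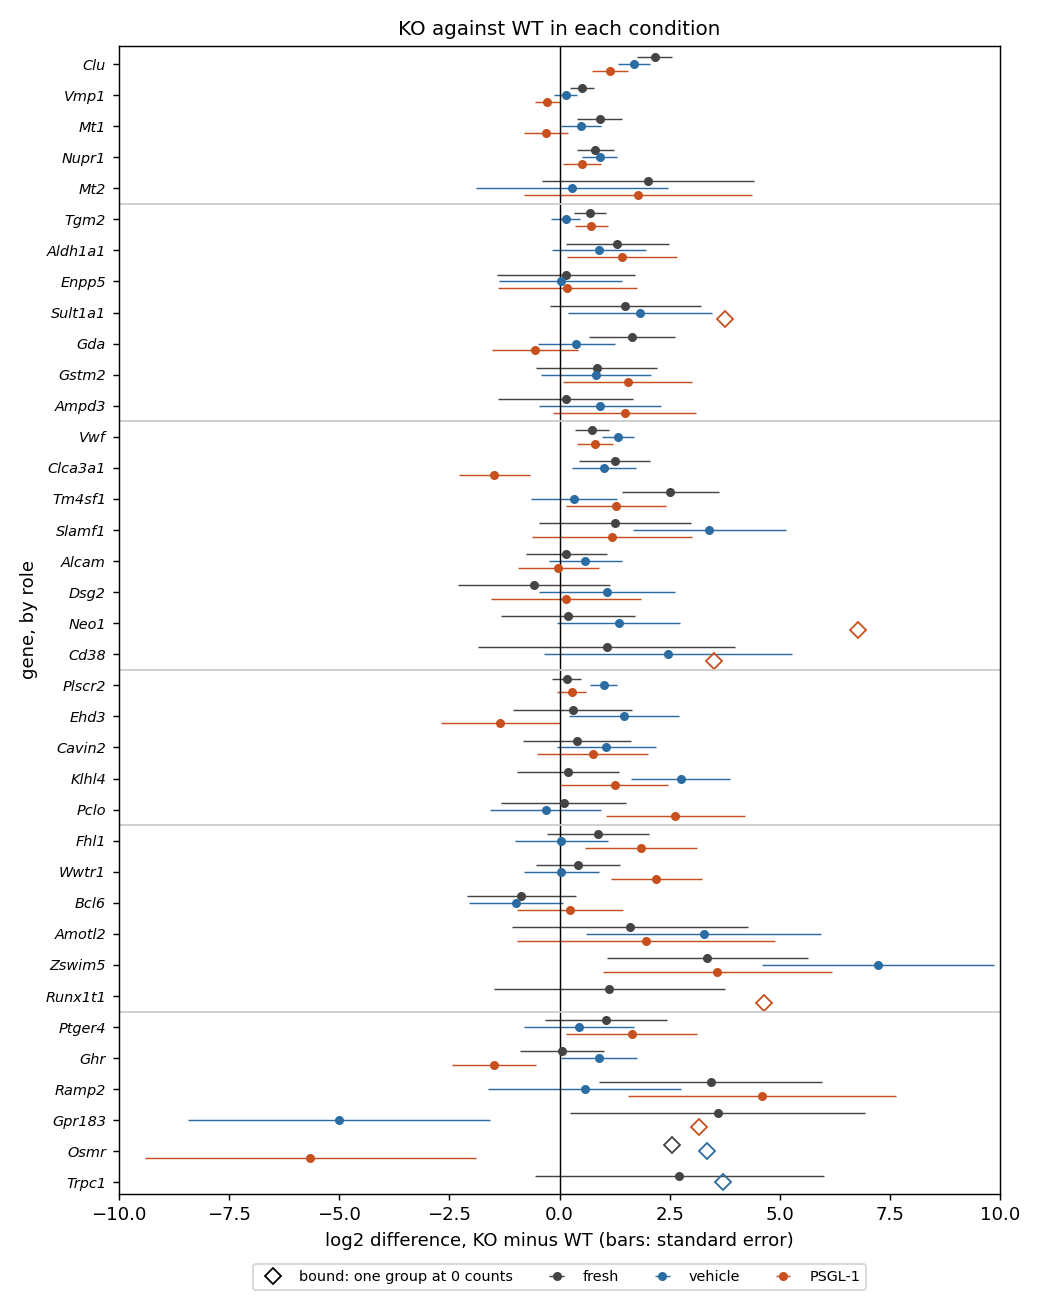
Log2 difference of KO against WT for each of the 37 genes (rows, grouped by role) in fresh cells, vehicle and PSGL-1 culture, with the fitted standard error as a bar. Open diamonds are bounds for genes with 0 counts in each library of 1 group, and genes at or under the floor in both groups have no symbol. Clu has short bars clear of 0 in each condition, while receptors and channels have bars that span several log2 units.

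By level, KO and WT libraries did not overlap for 13 members in fresh cells, all higher in KO, where 9.1% of tested genes were higher without overlap and 9.95% lower. The 2 fresh KO libraries differed in this. Replicate 1 alone lay above all fresh WT libraries for 14 members and below all for 7, against 25.4% and 32.3% of genes. Replicate 2 alone did so for 27 and 0, against 24.9% and 18.5%. After vehicle 9 members were higher without overlap and 0 lower, against 5.76% and 3.72% of genes. After PSGL-1 14 were higher and 1 lower, against 11.5% and 6.32%. Clu and Nupr1 were higher without overlap in all 3 conditions, which held for 0.29% of genes. None was lower without overlap in all 3, against 0.106% of genes. With CPM rescaled by TMM or RLE factors Vwf joined Clu and Nupr1, where 0.276% and 0.297% of genes were higher without overlap. Summed over the 37 genes, levels were 1299 to 1847 CPM in fresh WT and 2152 and 3389 CPM in fresh KO. The sums were 896 to 1248 CPM in WT and 1583 to 2128 CPM in KO after vehicle. After PSGL-1 they overlapped, at 1459 and 1677 CPM in WT and 1603 to 2121 CPM in KO.

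Single members mostly missed the threshold, an adjusted p under 0.05 in edgeR's quasi-likelihood test over all genes. None of the 37 passed in fresh cells, after vehicle or after PSGL-1, where in each comparison 1 gene was higher (0.00708%) and 0 lower. At an unadjusted p under 0.05 there were 2 members in fresh cells, 7 after vehicle and 4 after PSGL-1, and the shares of all genes were 2.84%, 2.83% and 5.81%. DESeq2 called 1, 2 and 3 members higher, where it called 0.224%, 0.473% and 1.51% of genes higher, and 0 lower, against 0.409%, 0.236% and 0.358%. For the mean of the 3 conditions Clu passed, 1 of 37 members, while 0.0212% of genes were higher and 0.0142% lower. There 35 of 37 members were above 0 with a median of 0.96, against 56.0% and 0.07, and 11 had an unadjusted p under 0.05, against 6.84% of genes. The fresh leaning rested largely on 1 library: without KO fresh replicate 2, 22 of 37 members were above 0, with a median of 0.38 where all genes had −0.13. After vehicle the count was 26 and the median 0.47 without KO vehicle replicate 1, and after PSGL-1 they were 24 and 0.81 without KO PSGL-1 replicate 1 and 31 and 0.86 without the sparse library.

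**Figure D2:**
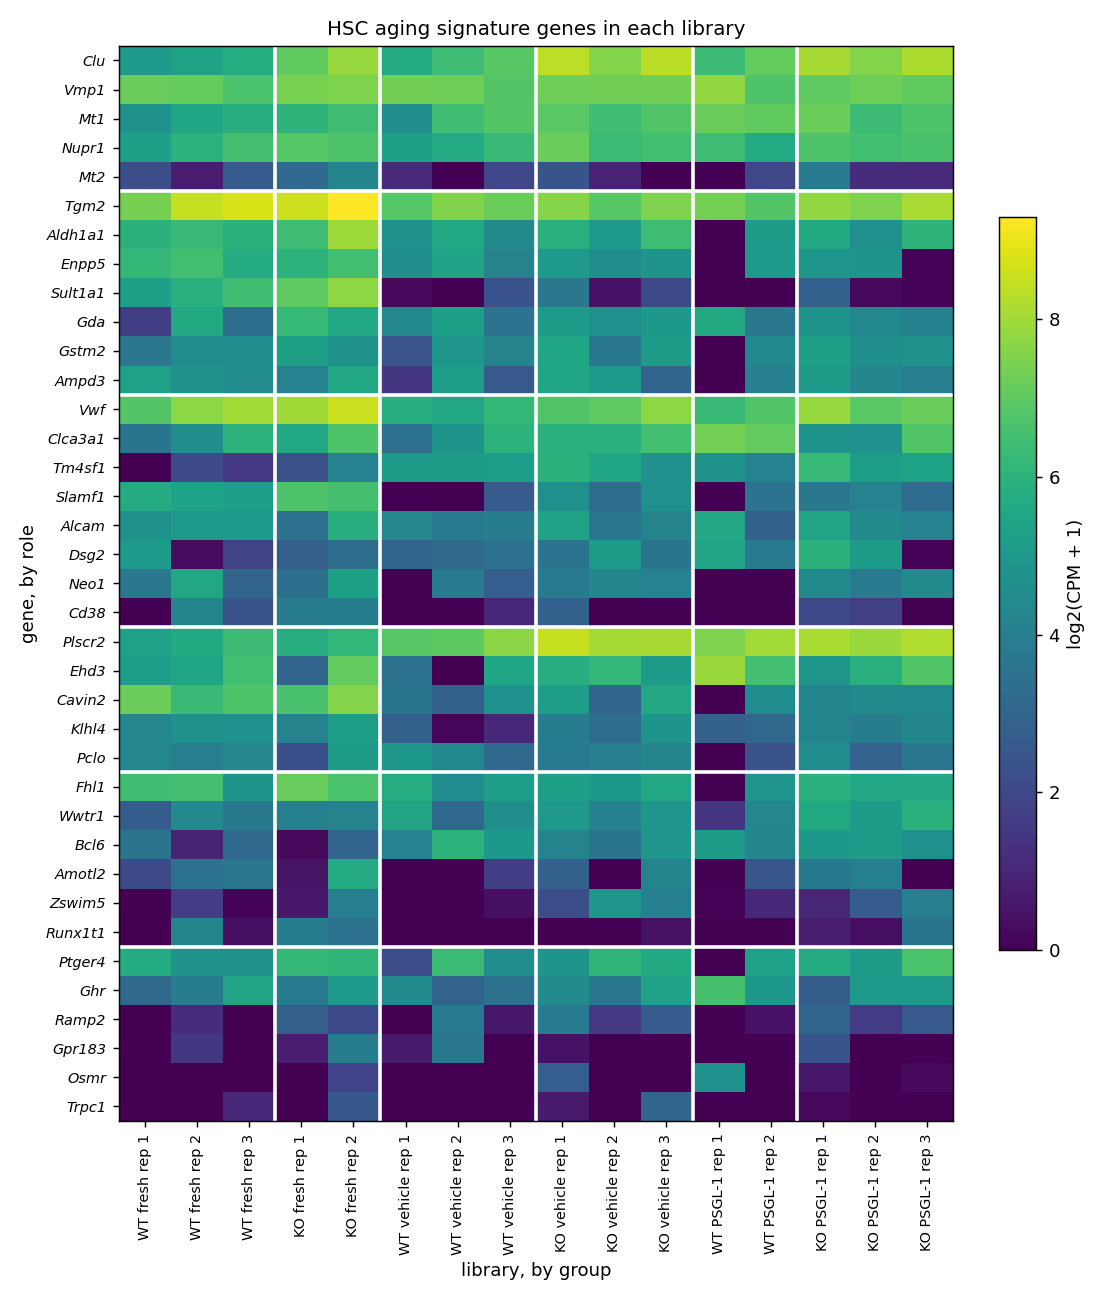
Level of each of the 37 genes (rows, grouped by role) in each of the 16 libraries (columns, grouped by genotype and condition) as log2(CPM + 1). The column with the most dark cells is the sparse library WT PSGL-1 replicate 1, in which 18 genes had 0 counts, and Sult1a1 and Slamf1 are bright in the fresh columns and dark in most cultured ones.

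Stress and metal-binding genes held the clearest member. Clu, on chromosome 14 from 65968483 to 65981548 in GRCm38.p6, encodes clusterin, a secreted chaperone that binds misfolded proteins. It was at 30.8, 40.6 and 52.8 CPM in fresh WT and at 130 and 230 CPM in fresh KO. After vehicle it was at 51.7, 84.9 and 117 CPM in WT and at 326, 190 and 317 CPM in KO. After PSGL-1 it was at 82.2 and 137 CPM in WT and at 268, 189 and 281 CPM in KO. Each KO library was above each WT library of its condition, and the lowest KO library, at 130 CPM, was just below the highest WT library, at 137 CPM. The log2 differences were 2.15 (SE 0.39) in fresh cells, 1.69 (0.36) after vehicle and 1.15 (0.40) after PSGL-1, with edgeR adjusted p of 0.181, 0.880 and 0.765. Averaged over the conditions Clu was 3.17-fold higher in KO (log2 1.67, SE 0.22, edgeR adjusted p = 0.00667). With fresh and vehicle cells alone, a choice made after seeing the data, it was also the 1 member that passed (log2 1.92, edgeR adjusted p = 0.0114), and 7 members had an unadjusted p under 0.05 against 4.54% of genes. For the 3 conditions the adjusted p lay between 6.56e-05 and 0.0262 in the 16 fits without 1 library, and limma voom gave 0.0522.

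Nupr1, on chromosome 7 from 126623246 to 126625470, encodes a small chromatin-binding protein induced by cell stress. It was at 36.7, 62.7 and 93.0 CPM in fresh WT and 114 and 102 CPM in fresh KO. After vehicle the levels were 37.7, 50.7 and 75.7 CPM in WT and 145, 79.3 and 89.1 CPM in KO. After PSGL-1 they were 83.7 and 50.9 CPM in WT and 105, 87.3 and 96.7 CPM in KO. KO libraries were above WT libraries each time, but by narrow margins, and across conditions the genotypes overlapped. The averaged difference was 1.67-fold (log2 0.74, SE 0.24), which did not pass (edgeR adjusted p = 0.611).

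Mt1 and Mt2 encode metallothioneins, small proteins that bind zinc and copper. They lie 5315 bases apart on chromosome 8, Mt2 from 94172618 to 94173567 and Mt1 from 94178883 to 94180327. Mt1 was at 25.4, 44.0 and 56.0 CPM in fresh WT and 65.3 and 86.7 CPM in fresh KO, with no overlap. After vehicle it was at 23.3, 85.9 and 110 CPM in WT and 120, 86.0 and 107 CPM in KO, and the groups overlapped. After PSGL-1 it was at 143 and 129 CPM in WT and 147, 82.7 and 104 CPM in KO, again with overlap. Its log2 differences were 0.91 (SE 0.50), 0.49 (0.46) and −0.31 (0.50), none of which passed. Mt2 was far lower. Its fresh levels were 3.72, 0.635 and 5.44 CPM in WT and 8.03 and 17.8 CPM in KO, without overlap. In vehicle cultures Mt2 was at 1.20, 0 and 2.99 CPM in WT and 4.38, 0.890 and 0 CPM in KO. With PSGL-1 it was at 0 and 2.92 CPM in WT and 12.95, 1.30 and 1.21 CPM in KO, so that cultured groups overlapped for both metallothioneins. Averaged over the conditions, Mt1 had a log2 difference of 0.36 (SE 0.28) and Mt2 of 1.35 (SE 1.38), neither past the test. Vmp1, an endoplasmic reticulum protein needed for autophagy, was at 142, 138 and 100 CPM in fresh WT and 171 and 178 CPM in fresh KO. Its vehicle levels were 158, 149 and 110 CPM in WT and 151, 155 and 158 CPM in KO. After PSGL-1 they were 221 and 107 CPM in WT and 128, 151 and 129 CPM in KO. Vmp1 was higher in KO without overlap in fresh cells, and the groups overlapped in both cultures. Of the 5 stress and metal-binding genes, 5, 5 and 3 were above 0 in fresh cells, vehicle and PSGL-1.

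**Figure D3:**
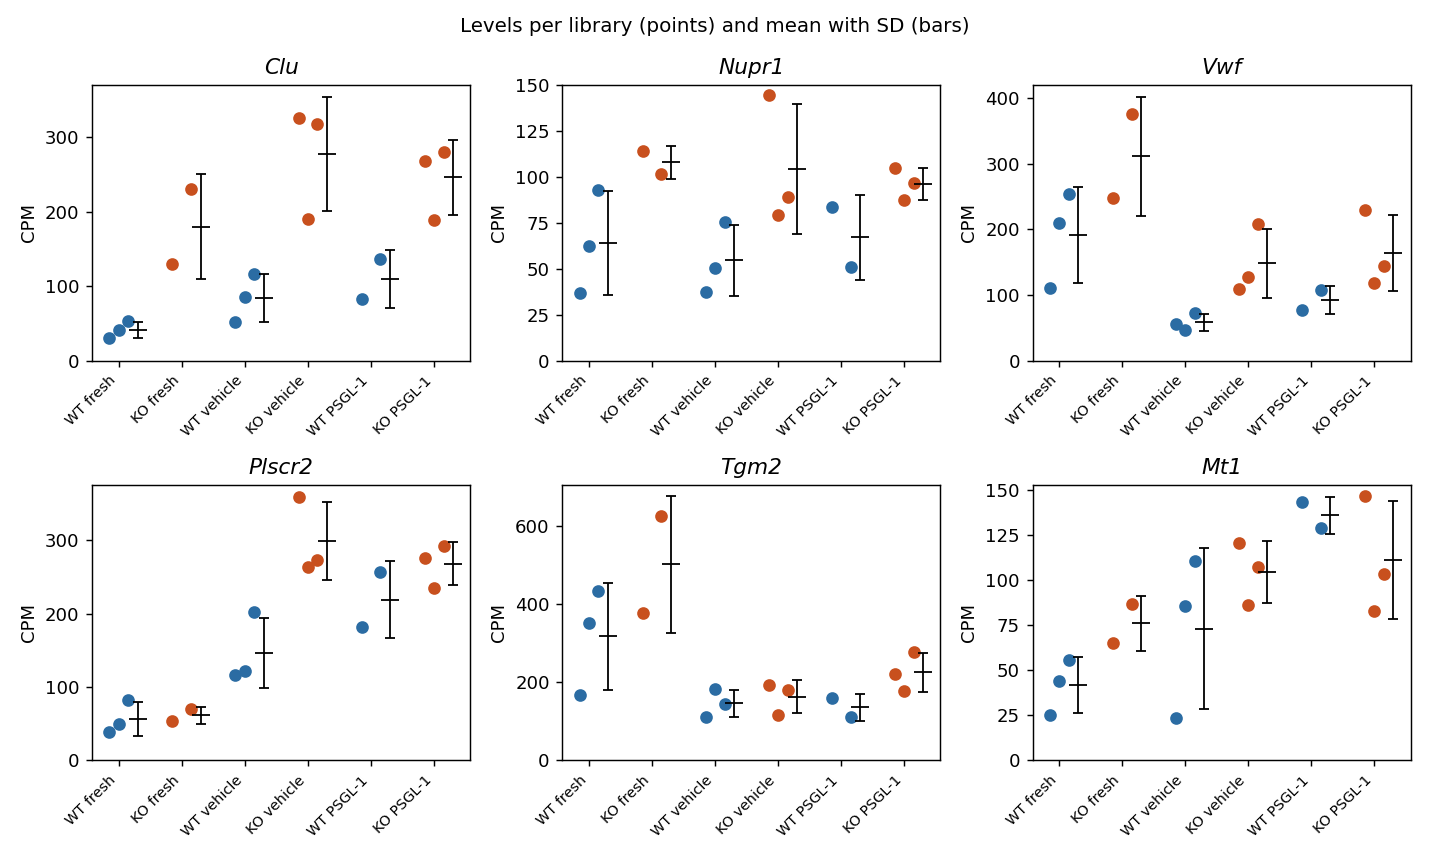
Level in CPM (vertical axes, starting at 0) of Clu, Nupr1, Vwf, Plscr2, Tgm2 and Mt1 in the 6 groups. Points are libraries, blue for WT and orange for KO, and bars give the mean with SD. Orange points lie above blue ones within each condition for Clu and Nupr1, Plscr2 is higher in all cultured groups than in fresh ones, and Tgm2 and Vwf are highest in fresh KO.

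Adhesion and surface genes include Vwf, on chromosome 6 from 125552948 to 125686679, which encodes von Willebrand factor, the platelet adhesion protein that also marks platelet-biased HSCs. Vwf was at 111, 209 and 254 CPM in fresh WT and 247 and 375 CPM in fresh KO, where 1 WT library lay above the lower KO library. After vehicle it was at 56.6, 46.1 and 72.0 CPM in WT and 110, 128 and 208 CPM in KO. After PSGL-1 it was at 77.5 and 108 CPM in WT and 229, 118 and 144 CPM in KO. In both cultures all KO libraries were above all WT libraries. The log2 differences were 0.74 (SE 0.39), 1.33 (0.36) and 0.81 (0.40), and the average, 1.94-fold (log2 0.96, SE 0.22), did not pass in edgeR (adjusted p = 0.334) and did in DESeq2 (adjusted p = 0.00460). Without 1 library at a time the averaged log2 difference of Vwf was 0.85 to 1.06.

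Slamf1 encodes CD150, a receptor by which HSCs are sorted, and lies on chromosome 1 from 171767131 to 171801184, 7617104 bases beyond Selp. In fresh cells it was at 51.4, 41.3 and 36.1 CPM in WT and 105 and 92.7 CPM in KO. In vehicle cultures it was at 0, 0 and 5.33 CPM in WT and 24.6, 9.05 and 24.6 CPM in KO. With PSGL-1 it was at 0 and 10.6 CPM in WT and 12.2, 16.5 and 8.56 CPM in KO. KO was above WT without overlap in fresh and vehicle cells, and the groups overlapped after PSGL-1. The averaged log2 difference was 1.95 (SE 1.02) and did not pass (edgeR adjusted p = 0.792). Without 1 library at a time it was 1.62 to 5.10, a range that includes a fit with the sparse library as the only WT PSGL-1 library.

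Tm4sf1, a tetraspan membrane protein of migrating and endothelial cells, lies on chromosome 3 from 57285611 to 57387736. It was at 0, 3.49 and 1.93 CPM in fresh WT and 3.93 and 16.4 CPM in fresh KO, 5.69-fold higher without overlap (log2 2.51, edgeR adjusted p = 1). In vehicle cultures it was at 34.6, 32.5 and 35.1 CPM in WT and 61.8, 42.9 and 25.3 CPM in KO. With PSGL-1 it was at 26.0 and 16.3 CPM in WT and 77.4, 36.4 and 41.3 CPM in KO. Each cultured group lay above fresh WT, and KO and WT overlapped after vehicle but not after PSGL-1.

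Neo1 encodes neogenin, a receptor for netrins and repulsive guidance molecules, on chromosome 9 from 58874679 to 59036614. Its fresh levels were 12.1, 45.03 and 6.73 CPM in WT and 9.74 and 38.1 CPM in KO, which overlapped. After vehicle they were 0, 12.9 and 5.91 CPM in WT and 13.5, 18.3 and 16.5 CPM in KO. After PSGL-1 Neo1 had 0 counts in both WT libraries and was at 20.1, 13.7 and 19.7 CPM in KO, at least 109.7-fold higher by the mean floor of the WT libraries. This did not pass in edgeR (adjusted p = 0.765), nor did the mean of the conditions (adjusted p = 0.395). Sult1a1, Runx1t1, Gpr183, Trpc1 and Cd38 also had 0 counts in both of these WT libraries, but in KO most of each level came from 1 or 2 libraries. In KO with PSGL-1 Gpr183 was at 4.40, 0 and 0 CPM and Trpc1 at 0.176, 0 and 0 CPM. Sult1a1 was at 6.39, 0.137 and 0.0607 CPM there, Runx1t1 at 0.703, 0.273 and 11.1, and Cd38 at 3.11, 2.39 and 0 CPM. Sult1a1 and Runx1t1 thus had counts in all 3 KO libraries. Of the 8 adhesion and surface genes 7 were above 0 in fresh cells, 8 after vehicle and 6 after PSGL-1. The other 4, Clca3a1, Alcam, Dsg2 and Cd38, had log2 differences from −0.57 to 1.25 in fresh cells. Clca3a1, a member of the chloride channel regulator family with near-identical neighbours that make its counts uncertain, was the 1 member lower in KO without overlap. It was chosen after its values were seen. After PSGL-1 it was at 162 and 133 CPM in WT and 27.0, 25.2 and 107 CPM in KO (log2 −1.48, SE 0.80, edgeR adjusted p = 0.765).

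Enzymes of detoxification and metabolism were all above 0 in fresh cells and after vehicle, 7 of 7 each time, and 6 of 7 were above 0 after PSGL-1. Tgm2, on chromosome 2 from 158116405 to 158146392, encodes transglutaminase 2, which crosslinks proteins. It was at 167, 353 and 436 CPM in fresh WT and 379 and 627 CPM in fresh KO, with overlap. In vehicle cultures the levels were 113, 183 and 145 CPM in WT and 194, 116 and 181 CPM in KO. With PSGL-1 they were 161 and 112 CPM in WT and 221, 178 and 279 CPM in KO, without overlap. Its averaged log2 difference was 0.52 (SE 0.21, edgeR adjusted p = 0.672).

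Aldh1a1 makes retinoic acid from retinal and lies on chromosome 19 from 20492583 to 20643463. It was at 62.2, 76.6 and 61.6 CPM in fresh WT and 84.7 and 242 CPM in fresh KO, without overlap. After vehicle it was at 26.3, 45.8 and 20.9 CPM in WT and 58.9, 31.3 and 84.6 CPM in KO. After PSGL-1 it was at 0 and 34.1 CPM in WT, the sparse library being at 0, and 49.3, 24.6 and 65.7 CPM in KO. Cultured groups overlapped, and the averaged log2 difference was 1.21 (SE 0.67). The other 5 enzymes, Sult1a1, Gda, Gstm2, Ampd3 and Enpp5, had fresh log2 differences of 0.14 to 1.65. They comprise a sulfotransferase, a guanine deaminase, a glutathione transferase, an AMP deaminase and a member of the nucleotide pyrophosphatase family. Gstm2 has close relatives, so that its counts are uncertain.

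Genes of membrane trafficking and scaffolds showed smaller fresh differences. Of these 5 genes all were above 0 in fresh cells, with a median log2 difference of 0.19. Plscr2, a member of the phospholipid scramblase family, lies on chromosome 9 from 92275602 to 92297752 and resembles its neighbour Plscr1, so that its counts are uncertain. It was at 38.6, 49.6 and 82.7 CPM in fresh WT and 53.8 and 70.1 CPM in fresh KO. In vehicle cultures it was at 116, 122 and 202 CPM in WT and 359, 264 and 273 CPM in KO. With PSGL-1 it was at 182 and 257 CPM in WT and 275, 236 and 292 CPM in KO. KO was higher without overlap after vehicle only, with log2 differences of 0.16 (SE 0.33), 1.00 (0.30) and 0.27 (0.34) in the 3 conditions. Ehd3, Cavin2, Klhl4 and Pclo had log2 differences of 0.09 to 0.40 in fresh cells. Ehd3 acts in endocytic recycling, Cavin2 in caveolae and Pclo in presynaptic scaffolds, and Klhl4 is a kelch-like protein.

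Among 6 transcription and Hippo pathway regulators, 5 were above 0 in fresh cells, 5 after vehicle and 6 after PSGL-1. Zswim5, a zinc finger SWIM domain protein, lies on chromosome 4 from 116877402 to 116989105. It was low in WT, at 0, 2.22 and 0.0716 CPM in fresh cells, 0, 0 and 0.292 CPM after vehicle and 0.0562 and 1.097 CPM after PSGL-1. In KO it was at 0.569 and 15.1 CPM in fresh cells, 3.74, 28.7 and 14.99 CPM after vehicle and 0.996, 5.54 and 14.8 CPM after PSGL-1. The groups overlapped in fresh cells and after PSGL-1, and the averaged log2 difference of 4.72 (SE 1.51) did not pass (edgeR adjusted p = 0.611; DESeq2 0.00404). Bcl6 encodes a transcriptional repressor that acts in B and T cells. It was the 1 member of this group below 0 in fresh cells and after vehicle, at −0.86 (SE 1.23) and −0.98 (1.07). Wwtr1 encodes TAZ and Amotl2 an angiomotin family protein that binds it and its relative YAP. Their averaged differences were 0.89 (SE 0.54) and 2.28 (1.60). Fhl1, a LIM domain protein, and Runx1t1, a transcriptional corepressor known as ETO, had averages of 0.92 (SE 0.66) and 4.73 (1.76), neither past the test. Runx1t1 was at 0 counts in each cultured WT library, and at 0, 0 and 0.324 CPM in KO after vehicle. Its average was thus fitted partly against groups at 0 counts and is no measured fold.

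Of the receptors and channels Osmr, Trpc1, Gpr183 and Ramp2 were scarce, and Ptger4 and Ghr were not. Osmr, which encodes the receptor for oncostatin M, on chromosome 15 from 6813568 to 6874968, was at 0 counts in 11 of 16 libraries. It was at 0 in all fresh WT libraries and at 0 and 2.63 CPM in fresh KO. In vehicle cultures it was at 0 in all WT libraries and at 5.93, 0 and 0 CPM in KO. With PSGL-1 it was at 24.7 and 0 CPM in WT and 0.527, 0 and 0.182 CPM in KO. Within the fresh KO, vehicle KO and WT PSGL-1 groups 1 library held all of its counts, and its highest value came from the sparse library. Trpc1, a calcium-permeable channel, was also at 0 counts in 11 libraries, and Gpr183, an oxysterol receptor that guides B cells, in 9. Ramp2, which modifies calcitonin family receptors, was at 0 counts in 4 libraries, the prostaglandin receptor gene Ptger4 in 1 and the growth hormone receptor gene Ghr in 0. All 6 of these genes were above 0 in fresh cells, 5 after vehicle and 4 after PSGL-1.

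After culture most signature genes lay lower in both genotypes, and Plscr2 rose. Vehicle cultures against fresh cells gave 23 of 37 members below 0 in WT, with a median log2 difference of −0.80, and 25 of 37 in KO, with a median of −0.32. The medians of all tested genes were −0.07 and −0.02. Above 0 were 13 members in WT and 12 in KO (35.1% and 32.4%), against 45.5% and 47.5% of all tested genes. Sums of 4 other marker lists were lower after culture as well, without overlap in either genotype. In WT the granulocyte and monocyte sum went from 742 to 790 CPM in fresh cells to 123 to 412 CPM after vehicle, the erythroid sum from 52.3 to 200 CPM down to 5.74 to 50.9 CPM, the T and NK cell sum from 70.5 to 103 CPM down to 15.6 to 21.6 CPM and the stromal sum from 21.3 to 93.8 CPM down to 0.292 to 7.01 CPM. In KO these sums were 201 to 247, 4.30 to 10.7, 10.2 to 19.0 and 13.3 to 26.5 CPM after vehicle. Some of these sums rest on few genes. Of the stromal markers only Col1a2 had counts in more than 3 of 16 libraries, and Col3a1, Dcn and Lum had none. The T and NK cell counts came from Nkg7, Klrb1c and Cd4 alone. On the erythroid list Klf1 and Epor had counts in 14 and 15 libraries, and the hemoglobin genes had none. Of the 10 listed HSC markers, Cd48 included, 3 were above 0 in WT (median log2 difference −0.83) and 2 in KO (median −0.64). Ly6a and Cd34 among them rose in both genotypes, and Kit fell in WT (edgeR adjusted p = 0.0465). The part of these shifts in the member differences was not tested. Plscr2 rose 2.77-fold in WT by a log2 difference of 1.47 (SE 0.31, edgeR adjusted p = 0.0229). In KO it rose 4.95-fold (log2 2.31, SE 0.37, edgeR adjusted p = 0.00399). It was the 1 member of 37 that rose in each genotype, where 1.23% of all genes rose. Vwf fell by 1.61 on the log2 scale in WT (SE 0.36, edgeR adjusted p = 0.0347), and in KO, where it did not pass, its log2 difference was −1.02 (SE 0.39). Tgm2 fell by 1.57 in KO (SE 0.36, edgeR adjusted p = 0.0391), and in WT its value was −1.02 (SE 0.33, adjusted p = 0.190). These were the 1 of 37 members lower in each genotype, against 0.404% and 0.538% of genes. The WT call of Plscr2 was lost without WT fresh replicates 1 or 2 or WT vehicle replicate 3 (highest adjusted p 0.126), and the KO call without KO fresh replicate 1 (0.0747). The WT call of Vwf was lost in each fit without 1 WT library except WT fresh replicate 1 (highest adjusted p 0.160), and in limma voom (0.0679) and the fit of these groups alone (0.0542, where Plscr2 was at 0.0984), and that of Tgm2 in each of its 5 such fits (0.186).

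At an unadjusted p under 0.05 there were 11 members in WT and 4 in KO, against 12% and 11.7% of genes. Without overlap, 9 members were lower and 3 higher after vehicle in WT, against 14.8% and 8.38% of genes. In KO the counts were 14 and 4, against 20.3% and 15.3%. Sult1a1, a phenol sulfotransferase, was at 37.2, 59.3 and 86.0 CPM in fresh WT and 0.180, 0 and 4.01 CPM after vehicle. In KO it was at 125 and 208 CPM in fresh cells and 11.9, 0.371 and 3.20 CPM after vehicle. Its log2 differences were −5.31 (SE 1.88) in WT and −4.97 (1.89) in KO, with edgeR adjusted p of 0.234 and 0.274. It lies on chromosome 7 from 126672865 to 126690443, 47394 bases from Nupr1, which did not follow it: the differences of Nupr1 were −0.12 (SE 0.39) and −0.03 (0.43). Slamf1 was lower after vehicle without overlap in both genotypes, with log2 differences of −4.46 (SE 1.81) and −2.32 (1.74). Clu had values of 1.14 (SE 0.35) in WT and 0.67 (0.39) in KO, above 0 and not past the test. Sult1a1 was singled out after its values were seen. The share of members below 0 in KO moved with 1 library, since without KO fresh replicate 2 there were 19 of 37 above 0 and the median was 0.19.

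**Figure D4:**
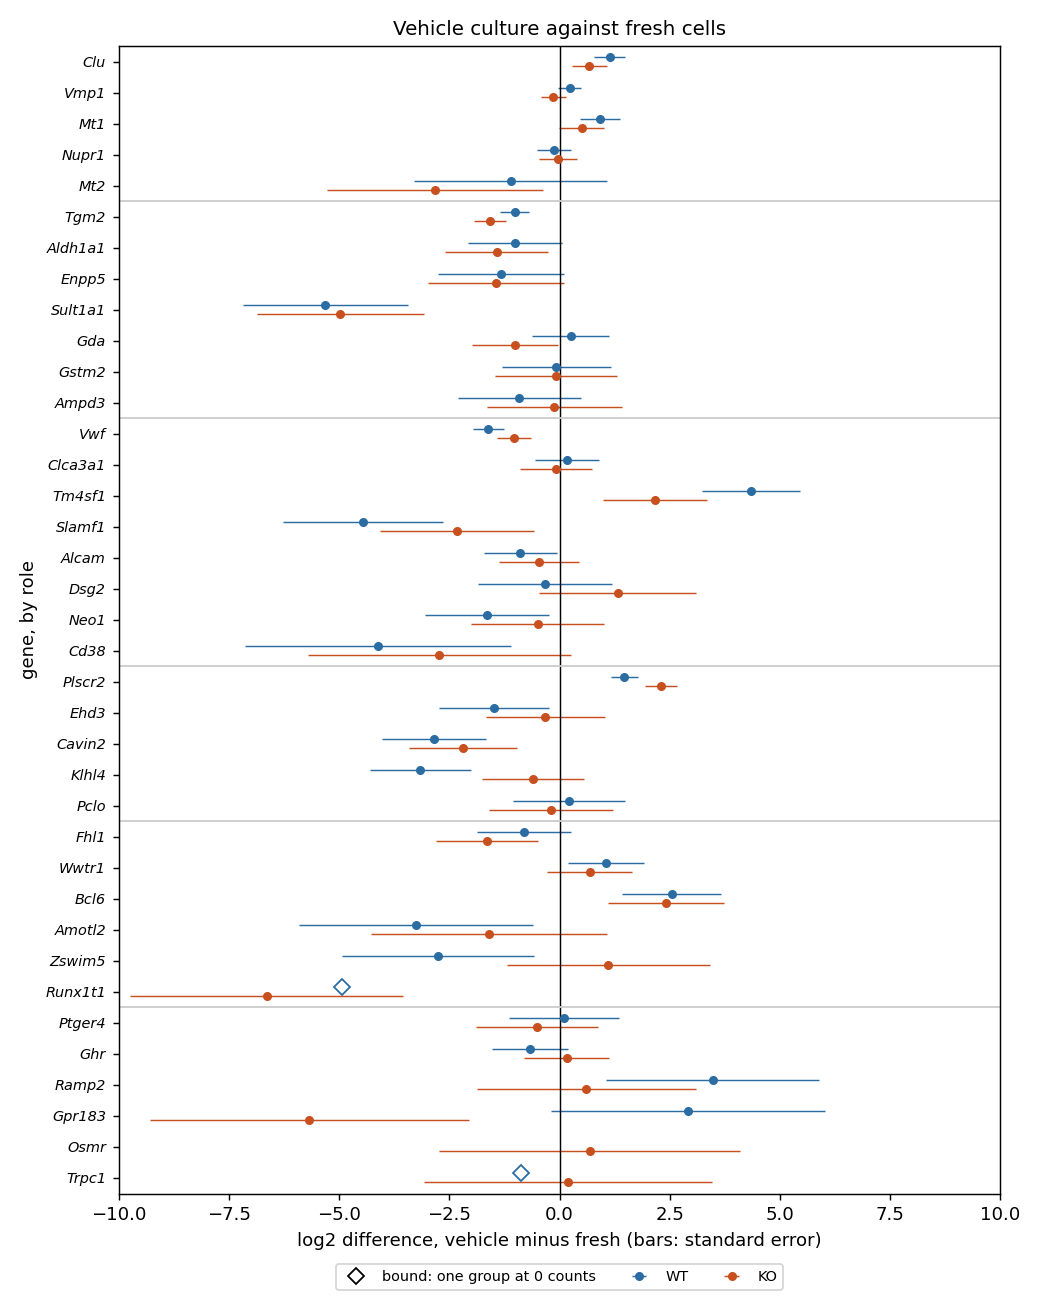
Log2 difference of vehicle culture against fresh cells for each of the 37 genes (rows, grouped by role) in WT and KO, with the fitted standard error as a bar. Open diamonds are bounds for genes with 0 counts in each library of 1 group. Plscr2 lies right of 0 in both genotypes, at 1.47 and 2.31, while Sult1a1, Slamf1, Cavin2, Vwf and Tgm2 lie left of it.

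Whether culture acted differently on the genotypes was tested as the KO response minus the WT response. No member passed and no gene did, 0 members had an unadjusted p under 0.05 against 2.5% of all genes, and DESeq2 also called 0 members. The median over the 37 genes was 0.10, with 19 above 0, against 0.04 and 52.0% of all genes. Plscr2 had the smallest p among them, with a difference of 0.84 (SE 0.45, edgeR adjusted p = 1).

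PSGL-1 against vehicle left the members near 0 in KO cells. There 16 of 37 were above 0 with a median of −0.09, against 47.8% of all genes. None passed the edgeR test (0% of genes did), 0 had an unadjusted p under 0.05 against 1.4% of genes, and DESeq2 called 0. Without overlap 1 member, Wwtr1, was higher and 0 were lower, against 4.24% and 3.74% of genes. Clu was at −0.18 (SE 0.35), Vwf at 0.14 (0.35), Plscr2 at −0.16 (0.30) and Tgm2 at 0.46 (0.33). In WT 18 members were above 0 and the median was 0, against 40.2% of all genes and a median of −0.11. Without overlap 7 members were higher and 2 lower, against 5.87% and 8.1% of genes. None passed in edgeR, where 0% of genes did, 6 had an unadjusted p under 0.05 against 5.69% of genes, and DESeq2 called 2 lower where it called 1.18% of genes lower, Neo1 and Cd38, both at 0 counts in the 2 WT libraries with PSGL-1. The comparison rests on 2 WT libraries, of which 1 was sparse, and without WT PSGL-1 replicate 2, which leaves the sparse library, edgeR called 9 members and 17% of all genes lower. Both PSGL-1 comparisons share their vehicle libraries with the culture comparisons above. The PSGL-1 response in KO minus that in WT had 4 members with an unadjusted p under 0.05, Clca3a1, Gpr183, Osmr and Neo1, against 4.33% of genes, and none passed in edgeR.

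Per kilobase of exon, the order of the members changed with culture. In fresh WT the highest were Tgm2 at 69.1 ± 29.8 CPM per kilobase, Sult1a1 at 40.3 ± 16.2 and Cavin2 at 36.2 ± 11.8 (SD, n = 3). In fresh KO they were Sult1a1 at 111 ± 38.9, Tgm2 at 109 ± 38.0 and Mt1 at 61.0 ± 12.1 CPM per kilobase (SD, n = 2). After vehicle Mt1, at 58.7 ± 36.0, and Plscr2, at 46.1 ± 15.1, led in WT, and Plscr2, at 93.9 ± 16.6, Mt1, at 83.96 ± 13.96, and Clu, at 80.8 ± 22.2 CPM per kilobase, led in KO (SD, n = 3 each). Neighbours named here differed by less than the larger of their SDs, except Tgm2 and Mt1 in fresh KO. Clu was in place 11 of 37 in fresh WT, at 12.03 ± 3.21 CPM per kilobase, and in place 4 in fresh KO, at 52.4 ± 20.5. At the low end stood Osmr and Trpc1, at 0 to 0.109 and 0.0446 to 0.306 CPM per kilobase in the 2 fresh groups.

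Related genes outside the 37 were read from 7 companion lists. No gene of any of them passed between genotypes, in single conditions or on average. Of the glutathione transferases, 11 of 11 were above 0 for the mean of the conditions with a median log2 difference of 0.39, where 56.0% of all genes were above 0, and with vehicle culture 1 of 11 was above 0 in each genotype, the medians being −1.101 for WT and −0.77 for KO. Of 9 tested partners and targets of YAP and TAZ, 8 were above 0 for the mean of the conditions, with a median of 0.87, but 4 in fresh cells, with a median of 0. Of 8 tested retinoic acid pathway genes 8 were above 0 on average, with a median of 0.95, and 7, 5 and 5 in fresh cells, vehicle and PSGL-1. The zinc and metal response partners had 3 of 5 above 0, with a median of 0.44. A further list of 8 genes reported higher in old HSCs had 5 above 0 and a median of 0.26, against 56.0% and a median of 0.07 for all genes. Itgb3, an integrin subunit on that list, rose with vehicle culture in WT (log2 2.32, SE 0.43, edgeR adjusted p = 0.0119), where Vwf fell. Lymphoid priming genes reported lower in old HSCs had 2 of 7 above 0 and a median of −0.12 on average, 4 of 7 and 0.39 in fresh cells and 0 of 7 and −0.62 after vehicle. Among the partners of the oncostatin M receptor, 4 of 6 were above 0 with a median of 0.48, and Socs3, a feedback inhibitor of cytokine signalling, rose with culture in both genotypes, by a log2 difference of 3.05 in WT (SE 0.40, edgeR adjusted p = 0.00102) and 2.15 in KO (SE 0.45, adjusted p = 0.0213).

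Reads shared between neighbouring genes limit some of these values. The sources used here give no strand setting, and 8 members overlap a gene of the opposite strand that is also in the count table, among them Aldh1a1, Sult1a1, Tgm2, Gpr183 and Ptger4. In addition 2, Ramp2 and Vmp1, overlap such a gene on the same strand. Clu, Nupr1, Vwf and Plscr2 overlap no gene in the table.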

How the data were processed

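RNA of mouse bone marrow HSCs from 16 libraries was measured by RNA-seq, with libraries made by a low-input full-length cDNA kit per the labels' protocols. The values are raw read counts per gene symbol, as deposited by the authors. STAR 2.7.5c, featureCounts, MultiQC 1.10, DESeq2 and the build mm10 are the tools and genome listed per the submitters' processing notes. The sources used here give no annotation, strand setting or rule for reads that match several genes. Libraries were grouped by the genotype and treatment in the labels.

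The members and lists were chosen with earlier results of these data known. Genes were filtered with filterByExpr by group, scaled by TMM and fitted with edgeR's quasi-likelihood model with robust estimation, with 1 mean for each of 6 groups. This gave a common biological coefficient of variation of 0.977 over 14124 genes. P-values were adjusted by Benjamini-Hochberg over all genes tested, with a threshold of 0.05. Standard errors are the absolute log2 value over the root of F. The 9 comparisons were KO against WT in each condition and on average, vehicle against fresh and PSGL-1 against vehicle in each genotype, and the genotype difference of the culture response. Levels are CPM of the library total. A fold against a group at 0 counts in each library is a bound from 3 counts per library.

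Values in every library are given for members that passed in any comparison, the 8 with the smallest p in fresh cells, the 4 for the mean of the conditions, and Mt1, Mt2, Vwf, Slamf1, Aldh1a1 and Nupr1. Companion genes are named where they passed. Alternatives were DESeq2, limma voom with library weights, RLE scaling, other filters, fits of only the groups compared, fits without 1 library, and a block for replicate numbers. Choices made after seeing the data were the mean of fresh and vehicle, rescaled CPM, the count of members above 0 under each alternative, and the genotype difference of the PSGL-1 response. Gene coordinates and promoters come from RefSeq on GRCm38.p6, the assembly also named mm10, and exon lengths and overlaps from GENCODE vM21. The fitting steps were tested on simulated data with less spread than these libraries showed, so that test does not show how well changes are recovered here. The software was DESeq2 1.42.0, limma 3.58.1 and edgeR 4.0.16 under R 4.3.3.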

Additional observations from a re-analysis of the deposited data

How the results depend on the processing

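The call of Clu for the mean of the conditions held in every alternative but limma voom, which called 0 members there (0.0212% of genes), and it held for fresh and vehicle alone (log2 1.92, edgeR adjusted p = 0.0114). DESeq2 called more members higher in KO, 1 in fresh cells (0.224% of genes), 2 after vehicle (0.473%), 3 after PSGL-1 (1.51%) and 6 on average (1.2%). Limma voom gave member medians of 2.80 after PSGL-1 and 1.63 on average. For vehicle against fresh in WT, DESeq2 called 2 higher and 4 lower (2.91% and 2.63% of genes), the fit without the sparse library 2 and 2 (1.87% and 1.04%) and limma voom 2 and 2 (2.92% and 2.08%), its lower ones being Slamf1 and Sult1a1 and not Vwf. The fit of these groups alone called 0 higher (1.08%) and Cavin2 in place of Vwf lower (0.876%). In KO, limma voom called 5 lower (2.56%). For PSGL-1 against vehicle in WT, DESeq2 called 2 lower (1.18%). The cause of these differences was not tested.

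Without 1 library at a time, where a lone library of a group is assumed to vary like the others, members called higher in KO numbered 0 to 12 after PSGL-1 and 1 to 13 on average, highest without WT PSGL-1 replicate 2, which leaves the sparse library alone and where 17.2% and 13.9% of all genes were called higher. Medians for KO against WT were 0.38 to 0.99 in fresh cells, 0.47 to 1.24 after vehicle, 0.81 to 4.75 after PSGL-1 and 0.83 to 2.91 on average. Members above 0 were 22 to 36 in fresh cells. For vehicle against fresh, calls were 0 to 1 higher and 0 to 1 lower in WT and 0 to 1 higher and 0 to 0 lower in KO, with medians of −0.83 to 0.19 and 11 to 19 members above 0 in KO. For PSGL-1 against vehicle in WT 0 to 9 were lower, 9 where 17% of all genes were. The genotype difference of the culture response had medians of −0.28 to 0.87. Members higher in KO without overlap in all 3 conditions numbered 2 to 4. Among all genes overlap also becomes rarer with fewer libraries. Their share was taken only without the sparse library (2 members, 0.389% of genes), so this range is no result about the members. Differences near 0 changed sign. Nupr1 with culture ranged from −0.47 to 0.26 in WT and from −0.33 to 0.14 in KO, and was 0.020 in KO with limma voom. With PSGL-1 against vehicle, Tgm2 in WT ranged from −0.39 to 0.078, Clu in WT from −0.10 to 0.70 and Vwf in KO from −0.18 to 0.46. Osmr in fresh cells, at 0 counts in WT, had a fitted log2 difference of 0 without the 1 KO library that held counts and 8.34 without the other, which depends on the prior count and is no bound.

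Replicate numbers did not pair the libraries: deviations of same-numbered libraries correlated with r between −0.072 and 0.076 by title number and −0.072 and 0.1004 by sets of 6 library numbers. With the title number as a replicate block Clu was at 1.71 on average (edgeR adjusted p = 0.00638) and Tgm2 with PSGL-1 in WT at 0.024. With the sets as a replicate block Tgm2 with culture in KO lost its call (−1.43, adjusted p = 0.0918), which left 0 members lower, and Nupr1 there was at 0.039. Genes near 3 counts were beyond what this depth resolves. Osmr and Trpc1 were at 0 counts in 11 of 16 libraries, but reached 24.7 and 7.17 CPM, well above the floor. Why they had counts in some libraries only was not tested.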
